A study of Mus musculus with 4 samples.

Results

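Of the 20065 genes in the deposited RNA-seq table of cultured satellite cells (MuSC), 9 were analysed here as markers of quiescent or freshly isolated MuSC: Spry1, Cd34, Vcam1, Sdc3, Sdc4, Cxcr4, Itga7, Met and Chrdl2. They were taken by name from a list of 10 markers after the gene identifiers had been matched to GENCODE release M21. No threshold on measured values was used, but the list was chosen with earlier results of these data known. Calcr, the 10th marker, was not analysed here. Chrdl2 had too few reads to be tested, so 8 markers entered the comparison of Prmt5sKO with control MuSC.

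The table covers 2 control and 2 Prmt5sKO libraries of RNA from cultured MuSC of limb and trunk muscle of adult mice on the C57BL/6 background. Control cells carried Pax7CreERT2 and 1 floxed Prmt5 allele (Prmt5+/loxP) and are labelled wild type, Prmt5sKO cells carried Pax7CreERT2 and the floxed allele on both chromosomes (Prmt5loxP/loxP), and all 4 samples are labelled +TAM, for tamoxifen. The inducible Cre recombinase is driven by the Pax7 locus, so only cells that expressed Pax7 during induction could recombine, and both groups were exposed to Cre and tamoxifen. The methods of the study describe deletion in culture with 4-hydroxytamoxifen for this experiment and purification of MuSC either by a Pax7 reporter or by antibodies that included CXCR4 and CD34, without stating which was used for these libraries. No source used here says from how many animals the cultures came, so p-values measure the spread between these samples, which by the Xist and Y-linked reads given below includes a difference in donor sex within each group. In bulk RNA, fewer cells of a type and less RNA per cell cannot be told apart.

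Satellite cells are the stem cells of skeletal muscle and lie between the muscle fibre and its basal lamina, where most of them are quiescent. Adhesion molecules, proteoglycans and receptors on their surface hold them in this niche and pass on the signals that wake them, and the same molecules serve to sort them from muscle. When satellite cells enter culture they activate, and transcripts such as Calcr, Spry1, Cd34 and Chrdl2 are known to decline, while receptors used by dividing myoblasts, such as Met, remain expressed.

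The upstream sequences of Spry1, Cxcr4 and Cd34 are shown because these 3 markers had the smallest p-values of the comparison below. Each is the 250 bases before the annotated RefSeq transcription start on GRCm38.p6, written 5′ to 3′ on the strand of the gene: Spry1 at chr3:37639697-37639946 (plus strand), Cxcr4 at chr1:128592300-128592549 (minus strand) and Cd34 at chr1:194938571-194938820 (plus strand). Capitals mark matches on either strand to the E-box CANNTG, bound by basic helix-loop-helix factors such as MyoD, to the GC box GGGCGG, to the TATA box TATAAA and to TGGGAA, the core letters bound by the Notch effector Rbpj.
Spry1: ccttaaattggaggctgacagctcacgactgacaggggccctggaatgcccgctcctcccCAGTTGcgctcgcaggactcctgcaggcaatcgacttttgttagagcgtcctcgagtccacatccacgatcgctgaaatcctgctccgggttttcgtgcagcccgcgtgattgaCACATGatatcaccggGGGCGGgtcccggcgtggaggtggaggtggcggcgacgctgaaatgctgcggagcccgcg
Cxcr4: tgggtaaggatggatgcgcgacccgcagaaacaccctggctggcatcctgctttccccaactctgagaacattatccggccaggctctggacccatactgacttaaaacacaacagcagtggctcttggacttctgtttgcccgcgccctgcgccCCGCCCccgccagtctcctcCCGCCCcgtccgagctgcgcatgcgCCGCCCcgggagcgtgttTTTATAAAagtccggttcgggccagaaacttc
Cd34: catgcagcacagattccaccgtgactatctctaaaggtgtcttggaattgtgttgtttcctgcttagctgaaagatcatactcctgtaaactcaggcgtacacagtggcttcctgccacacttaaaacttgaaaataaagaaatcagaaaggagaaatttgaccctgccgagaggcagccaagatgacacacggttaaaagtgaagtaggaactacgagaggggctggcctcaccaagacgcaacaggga
The Spry1 window held 2 E-boxes, CAGTTG and CACATG, at 190 and 76 bases before the start, and 1 GC box at 60 bases. In the Cxcr4 window there were 3 GC boxes in the reverse orientation, at 95, 75 and 50 bases, and a TATA box that matched on both strands with overlapping letters, at 32 and 30 bases. No searched motif occurred in the Cd34 window, of which 46.4% of the bases were G or C, against 62.4% for Spry1 and 61.2% for Cxcr4. The E-box occurred in 66.2% of 32851 windows of the same length in the table of mouse promoters, the GC box in 32.7%, the TATA box in 12.4% and the Rbpj core in 21.6%. Of the 8 windows of the 7 markers with an entry, Calcr having 2 starts, 3 held an E-box, 6 a GC box, 1 the TATA box (Cxcr4), 1 the Rbpj core (Met) and 0 the E-box CAGCTG, which 13.0% of all windows held. Vcam1, Itga7 and Chrdl2 had no entry.

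Whole reads of each library were worked out from the deposited group means and summed to 14436914 and 13240754 in the control libraries and to 20047430 and 16190414 in the Prmt5sKO libraries. The libraries of a group are called deeper and shallower, because the columns carry no replicate numbers, and values are normalized counts scaled by the trimmed mean of M-values (TMM) unless stated otherwise. Prmt5 was at 2273 (deeper) and 2906 (shallower) in control and at 244 and 202 in Prmt5sKO libraries, so the deleted gene followed the labels (log2 fold change -3.52, limma-voom adjusted p = 0.193). The log2 fold change of Prmt5 was -3.66 without the deeper and -3.40 without the shallower Prmt5sKO library. It was -3.71 without the deeper and -3.33 without the shallower control library. The shallower Prmt5sKO library stood apart in a list of 20 activation and differentiation genes. Of these, 19 were higher there than in the deeper Prmt5sKO library, with a median log2 difference of 3.35. Of all 16212 genes tested, 7939 were higher there, with a median of -0.02. The list was chosen with earlier results of these data known, so its count is a description only. Xist was at 8668 in the deeper control and 5655 in the shallower Prmt5sKO library and at 23.3 and 8.15 in the shallower control and deeper Prmt5sKO libraries, where the Y-linked Ddx3y was at 787 and 1176 against 0 reads in the former pair, so each group combined libraries of different donor sex. All 7 myogenic marker genes with a row were expressed, with Pax7 at 3079 and 3002 in control and 3664 and 2570 in Prmt5sKO libraries, and Msc had no row.

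Spry1, Cxcr4, Cd34 and Vcam1 had normalized counts above both control libraries in each of the Prmt5sKO libraries, while Sdc3, Sdc4, Itga7 and Met overlapped between the groups. None of the 8 tested markers passed the threshold of an adjusted p of at most 0.05 and at least a 2-fold change in limma-voom with Benjamini-Hochberg adjustment over 16212 genes, a threshold that 0% of all genes passed. Across all genes, no adjusted p was smaller than 0.193. These counts are those of limma-voom with 2 libraries per group. The study used DESeq2 and did report up- and downregulated genes in this experiment at a false discovery rate below 0.05. At an unadjusted p under 0.05, 3 markers were higher and 0 lower, beside 6.01% and 6.95% of all genes, or 13% in either direction (2101 genes). Both Prmt5sKO libraries lay above both control libraries for 4 of 8 markers and for 25.2% of all genes, and below for 0 markers and 23.6% of all genes, so that the groups were apart for 4 markers and for 48.8% of all genes. The median log2 fold change was 0.32 over the 8 markers and 0.02 over all genes.

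**Figure D1:**
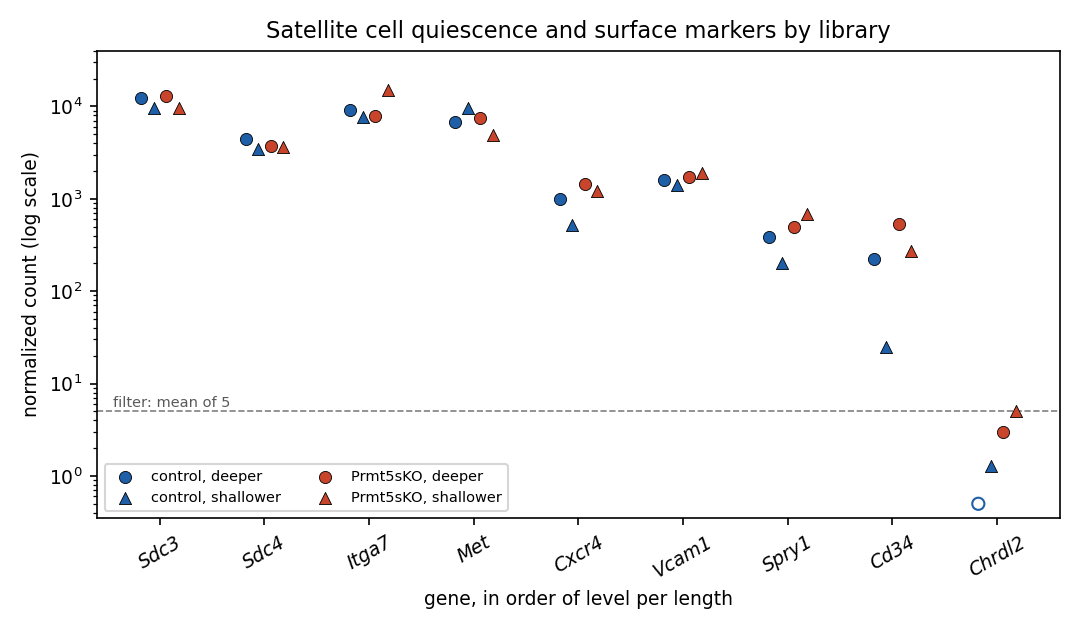
Normalized counts (TMM, log axis) of the 9 markers with a row in each of the 4 libraries, ordered by level per transcript length; circles are the deeper and triangles the shallower library of control (blue) and Prmt5sKO (red), and the dashed line is the minimum mean of 5 for testing. Both red symbols lie above both blue symbols for Cxcr4, Vcam1, Spry1 and Cd34, and the open circle at the lower edge stands for the control library with 0 reads of Chrdl2.

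The levels of the markers, as reads scaled to exon length and library size (RPKM, with TMM scaling), spanned a wide range in these cultures. Sdc3 had the highest mean RPKM over the 4 libraries (115.7), followed by Sdc4 (93.1), Itga7 (75.7), Met (58.3), Cxcr4 (35.7), Vcam1 (11.6), Spry1 (9.42) and Cd34 (2.24). Between neighbours in this order, only Cxcr4 and Vcam1 had ranges that did not overlap, with a lowest Cxcr4 value of 17.8 RPKM and a highest Vcam1 value of 13.2 RPKM. Among the genes tested, Sdc3 stood at the 97.3th percentile of mean RPKM and Cxcr4 at the 91.5th, whereas Spry1 stood at the 68.8th and Cd34 at the 37.4th. The syndecans, the laminin receptor and the HGF receptor were therefore among the more abundant transcripts, and the intracellular inhibitor Spry1 and the sialomucin Cd34 were not.

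Spry1 (ENSMUSG00000037211, chromosome 3, 37639947 to 37644598, GRCm38, plus strand) encodes Sprouty1, an intracellular inhibitor of receptor tyrosine kinase signalling that is needed for the return of satellite cells to quiescence. It was at 382 and 201 normalized counts in control and at 491 and 692 in Prmt5sKO libraries, the deeper library of each group being given first here and for all genes that follow. The groups did not overlap, and the lowest library was the shallower control. Group means were 291 ± 128 in control and 592 ± 142 in Prmt5sKO libraries (SD, n = 2 each). The log2 fold change was 1.04 ± 0.38 (SE, limma-voom adjusted p = 0.350). Without the shallower control library it was 0.61, and without the shallower Prmt5sKO library 0.80.

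The related inhibitors Spry2 and Spry4 overlapped between the groups. Spry2 was at 3218 and 2157 in control and at 2875 and 2383 in Prmt5sKO libraries, and its log2 fold change was -0.01 (95% confidence interval -0.65 to 0.63), or 0.096 under scaling by library size only. Spry4 was at 1197 and 804 in control and at 1177 and 841 in Prmt5sKO libraries, with a log2 fold change of 0.02. The difference between Spry1 and its relatives was not tested. At an unadjusted p under 0.05, 6.01% of all genes were higher and 6.95% lower. Of 13 tested genes that dampen or read out receptor tyrosine kinase signalling, 1 was higher and 2 were lower at that p. The higher gene was Egr1, an immediate early transcription factor, at 1333 and 527 in control and 2689 and 1747 in Prmt5sKO libraries (log2 fold change 1.35, adjusted p = 0.330 in limma-voom, or a log2 fold change of 0.70 without the shallower control library). Lower were Fosl1, a subunit of the AP-1 factor, at 1324 and 1336 in control and 885 and 578 in Prmt5sKO libraries (-0.88, adjusted p = 0.299), and Etv4, an ETS factor induced by FGF signalling, at 1562 and 1398 in control and 949 and 787 in Prmt5sKO libraries (-0.77, adjusted p = 0.282). The median log2 fold change over the 13 genes was -0.18, beside 0.02 over all genes.

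Cxcr4 (ENSMUSG00000045382, chromosome 1, 128588199 to 128592293, minus strand) is the chemokine receptor by which satellite cells are commonly sorted. It was at 984 and 519 in control and at 1448 and 1218 in Prmt5sKO libraries. The groups did not overlap, the deeper control library lying nearer to the Prmt5sKO libraries than to the other control library. The means were 752 ± 329 and 1333 ± 163 (SD, n = 2 each), and the log2 fold change was 0.88 ± 0.33 (SE, limma-voom adjusted p = 0.355). Without the shallower control library the log2 fold change of Cxcr4 was 0.44.

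Its ligand Cxcl12, the chemokine SDF-1, had the opposite order. It was at 7824 and 6697 in control and at 5388 and 2768 in Prmt5sKO libraries, so both Prmt5sKO libraries were below both control libraries (log2 fold change -0.91 ± 0.34, SE, limma-voom adjusted p = 0.355). Cxcl12 had a log2 fold change of -0.43 without the shallower Prmt5sKO library and of -1.39 without the deeper one. The second receptor of Cxcl12, the scavenger receptor Ackr3, overlapped between the groups at 993 and 1069 in control and 1305 and 835 in Prmt5sKO libraries, with a log2 fold change of 0.03 (95% confidence interval -0.64 to 0.70).

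Met (ENSMUSG00000009376, chromosome 6, 17463800 to 17573980, plus strand) encodes the receptor of hepatocyte growth factor (HGF), the growth factor that activates satellite cells after injury. It was at 6830 and 9588 in control and at 7565 and 4897 in Prmt5sKO libraries. The deeper Prmt5sKO library lay between the control libraries and the shallower one below both. The log2 fold change was -0.42 (95% confidence interval -1.15 to 0.32, adjusted p = 0.569 in limma-voom), and it was -0.10 without the shallower Prmt5sKO library. Hgf itself was barely detected, at 4.52 and 0 normalized counts in control and 7.41 and 11.1 in Prmt5sKO libraries.

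Cd34 (ENSMUSG00000016494, chromosome 1, 194938819 to 194961279, plus strand) encodes a sialomucin of the cell surface that marks quiescent satellite cells and also endothelial and haematopoietic progenitor cells. It had the largest fold change and the largest spread of the 8 tested markers. Cd34 was at 220 and 24.6 normalized counts in control and at 539 and 271 in Prmt5sKO libraries, the value of the shallower control library resting on 19 reads. Its level in the deeper control library was 8.94 times that in the shallower one, although neither reached the lower Prmt5sKO library. The means were 123 ± 138 and 405 ± 190 (SD, n = 2 each), with a log2 fold change of 2.32 ± 0.91 (SE, limma-voom adjusted p = 0.369). The log2 fold change was 0.83 without the shallower control library and 3.93 without the deeper one. Cd34 overlaps the antisense gene Gm16897, which also has a row, and whether the counting used strand is not given in the sources used here.

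The genes whose centred log2 profile over the 4 libraries lay nearest to that of Cd34, among 11486 genes with a mean of at least 50, were Lad1 (Euclidean distance 0.51), B4galnt1 (0.56) and Gja3 (0.58). Lad1, which encodes the anchoring filament protein ladinin, was at 48.6 and 7.78 in control and at 120 and 57.3 in Prmt5sKO libraries. B4galnt1, a ganglioside synthase, was at 164 and 18.2 in control and at 267 and 224 in Prmt5sKO libraries, and Gja3, a gap junction protein, at 124 and 9.08 in control and at 197 and 90.5 in Prmt5sKO libraries. Each was lowest in the shallower control library and highest in the deeper Prmt5sKO library, as was Cd34. This shared order follows largely from the choice of the genes by these same values.

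Because Cd34 also marks other cells, marker lists of these were summed. The 6 of 8 endothelial markers with a row summed to 131 and 175 normalized counts in control and to 97.8 and 64.4 in Prmt5sKO libraries, Cdh5 having 0 reads in the shallower Prmt5sKO library and Emcn and Tie1 no row. The 4 of 8 haematopoietic markers with a row summed to 296 and 479 in control and to 608 and 242 in Prmt5sKO libraries, and Ptprc, which encodes CD45, had no row. The 5 of 6 markers of mural cells with a row summed to 3214 and 1787 in control and to 4896 and 6860 in Prmt5sKO libraries. Among these, Rgs5 was lower in the shallower control library, at 1774 and 128 in control and at 2367 and 4163 in Prmt5sKO libraries. Cspg4 was higher there, at 1345 and 1543 in control and at 2289 and 1590 in Prmt5sKO libraries. Of the 5 mural markers, 4 lay above and 0 below both control libraries in both Prmt5sKO libraries, beside 25.2% and 23.6% of all genes. Their median log2 fold change was 1.96, beside 0.02 over all genes. The median log2 difference of the shallower from the deeper control library was -0.16 over the 5 and -0.02 over all genes. The part of mural cells in the Cd34 values was not tested. The 8 fibro-adipogenic markers summed to 13490 and 6056 in control and to 14154 and 16765 in Prmt5sKO libraries, most of it Col3a1, and the 4 Schwann cell markers to at most 52.0 in any library.

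Vcam1 (ENSMUSG00000027962, chromosome 3, 116109949 to 116129688, minus strand) encodes an adhesion molecule that is used to sort satellite cells and binds the integrin of the α4 and β1 chains. It was at 1605 and 1405 in control and at 1737 and 1883 in Prmt5sKO libraries. The groups did not overlap but lay close together, with means of 1505 ± 142 and 1810 ± 103 (SD, n = 2 each). The log2 fold change was 0.27 (95% confidence interval -0.23 to 0.76, adjusted p = 0.585 in limma-voom). The gene of its integrin partner Itga4 was at 208 and 64.8 in control and at 279 and 503 in Prmt5sKO libraries, also without overlap (log2 fold change 1.61 ± 0.61, SE, limma-voom adjusted p = 0.355). Without the shallower control library the log2 fold change of Itga4 was 0.83, and without the deeper one 2.48. Itgb7, the other chain that pairs with Itga4, was at no more than 25.9 normalized counts in any library.

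Itga7 (ENSMUSG00000025348, chromosome 10, 128933818 to 128958282, plus strand) encodes integrin α7, the laminin receptor of muscle. It was at 9181 and 7637 in control and at 7831 and 14868 in Prmt5sKO libraries. The shallower Prmt5sKO library was the highest, whereas the deeper one lay between the control libraries. The log2 fold change was 0.37 (95% confidence interval -0.45 to 1.20, adjusted p = 0.648 in limma-voom), and it was -0.10 without the shallower Prmt5sKO library. That library was also the one high in differentiation genes, and Itga7 is itself expressed by muscle fibres, but a link between these was not tested. Itga7 overlaps Mettl7b on the opposite strand and the small nuclear RNA Gm25494 on the same strand, both of which have rows.

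The β1 chain Itgb1, shared by integrins α4 and α7, was at 15169 and 12778 in control and at 18477 and 15557 in Prmt5sKO libraries (log2 fold change 0.28, adjusted p = 0.608 in limma-voom). Of the laminin chains that integrin α7 binds, Lama2, the α chain of the basal lamina of adult muscle, was at 2244 and 1117 in control and at 3449 and 3689 in Prmt5sKO libraries (1.17 ± 0.35, SE, limma-voom adjusted p = 0.299), with a log2 fold change of 0.68 without the shallower control library. Lama5, another α chain, was at 4043 and 4045 in control and at 3059 and 2548 in Prmt5sKO libraries (-0.54 ± 0.21, SE, limma-voom adjusted p = 0.360). The order of the groups was thus opposite for these laminin chains, with no overlap between groups for either.

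Sdc3 (ENSMUSG00000025743, chromosome 4, 130792537 to 130826319, plus strand) and Sdc4 (ENSMUSG00000017009, chromosome 2, 164424247 to 164443887, minus strand) encode syndecans, transmembrane heparan sulfate proteoglycans that present FGF and HGF to their receptors and mark satellite cells. Sdc3 was at 12410 and 9679 in control and at 13077 and 9548 in Prmt5sKO libraries. The deeper library of each group was high and the shallower one low, and the groups overlapped, with a log2 fold change of 0.03 (95% confidence interval -0.61 to 0.66, adjusted p = 0.974 in limma-voom). Sdc4 was at 4468 and 3442 in control and at 3722 and 3666 in Prmt5sKO libraries, both of the latter lying between the control libraries. The log2 fold change of Sdc4 was -0.09 (95% confidence interval -0.62 to 0.45, adjusted p = 0.881) and turned to 0.019 under scaling by library size only. Sdc3 overlaps the antisense gene Gm12970, which has a row.

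Of the other syndecans, Sdc1 overlapped between the groups and Sdc2 did not. Sdc1 was at 3482 and 2782 in control and at 3453 and 3633 in Prmt5sKO libraries (log2 fold change 0.19). Sdc2 was at 2093 and 1262 in control and at 2472 and 2104 in Prmt5sKO libraries (0.49), with adjusted p of 0.717 for Sdc1 and 0.502 for Sdc2 in limma-voom. Among the FGF receptors that act with syndecans, Fgfr1 was at 3425 and 2963 in control and at 4770 and 4632 in Prmt5sKO libraries, without overlap (0.56 ± 0.20, SE, limma-voom adjusted p = 0.346). Fgfr4, the receptor typical of myoblasts, overlapped at 312 and 1047 in control and 587 and 1301 in Prmt5sKO libraries, and Fgf2 was at 28.3 and 9.08 in control and 81.5 and 8.05 in Prmt5sKO libraries.

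Chrdl2 (ENSMUSG00000030732, chromosome 7, 100006172 to 100034728, plus strand) encodes a secreted chordin-like protein that binds bone morphogenetic proteins. It had 0 and 1 reads in the control and 4 and 5 reads in the Prmt5sKO libraries, and its mean of 2.32 normalized counts was below the minimum of 5. The ratio of Prmt5sKO to control was 6.36, with an exact 95% interval of 0.881 to 279 that covers counting error only, so a difference was not detectable at this depth. Of its relatives, Chrd was at 20.3 and 16.9 in control and at 21.5 and 151 in Prmt5sKO libraries, and Chrdl1 at 3.39 and 9.08 in control and 3.70 and 4.02 in Prmt5sKO libraries. The high Chrd value was that of the shallower Prmt5sKO library alone.

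Calcr, the receptor of calcitonin that holds satellite cells in quiescence, was not analysed here, but the genes of the accessory proteins that modify its ligand specificity were low. Ramp1 was at 27.1 and 61.0 in control and at 65.9 and 92.5 in Prmt5sKO libraries. Ramp2 reached at most 40.2, in the shallower control library, and was lowest, at 3.02, in the shallower Prmt5sKO library. Ramp3 was at 14.7 and 1.30 in control and at 14.1 and 26.1 in Prmt5sKO libraries. The adjusted p in limma-voom was 0.516 for Ramp1, 0.532 for Ramp2 and 0.549 for Ramp3.

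**Figure D2:**
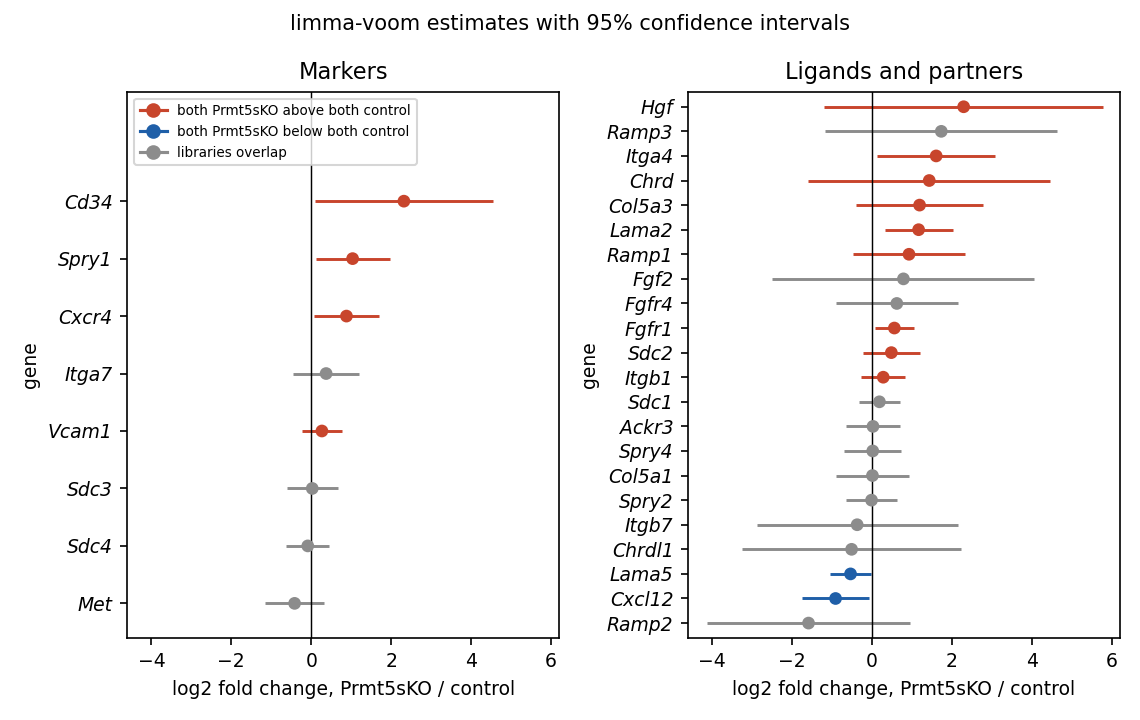
Log2 fold change of Prmt5sKO over control from limma-voom (points) with 95% confidence intervals (lines) for the 8 tested markers (left) and the 22 named ligands and partners (right); red and blue mark genes with both Prmt5sKO libraries above or below both control libraries and grey those that overlap. The intervals of Cd34, Spry1 and Cxcr4 lie above 0, from 0.10 to 4.54 for Cd34. Among the partners, those of Lama2, Fgfr1 and Itga4 lie above 0. Those of Cxcl12, from -1.75 to -0.07, and Lama5 lie below 0.

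Over the whole list of ligands and partners, 27 of 29 genes were tested. At an unadjusted p under 0.05, 3 were higher (Lama2, Fgfr1 and Itga4) and 2 lower (Cxcl12 and Lama5). Both Prmt5sKO libraries lay above both control libraries for 10 of the 27 and below for 3, with a median log2 fold change of 0.23, beside 25.2% and 23.6% of all genes and a median of 0.02. Col5a1 and Col5a3, chains of the collagen V that binds the calcitonin receptor on satellite cells, were at 4492 and 3638 and at 251 and 200 in control and at 2796 and 5904 and at 297 and 957 in Prmt5sKO libraries. Both collagen genes were highest in the shallower Prmt5sKO library. The log2 fold change of Col5a3 was 1.19 with all libraries, 0.40 without that library and 2.08 without the deeper one.

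Other genes of the quiescent state were counted beside the markers. Their list was chosen with earlier results of these data known and holds Cdkn1a, which the study reported as raised in this experiment. The counts are therefore a description only. Of 20 tested, 5 had an unadjusted p under 0.05 and were higher, 0 had one and were lower, 7 lay above and 0 below the control libraries without overlap, and the median log2 fold change was 0.54. Over all genes, 6.01% were higher and 6.95% lower at that p, and 25.2% lay above and 23.6% below without overlap. Of the 20 genes, 14 were higher in the shallower than in the deeper Prmt5sKO library, beside 7939 of all 16212 genes tested. The median log2 difference was 0.43, beside -0.02 over all genes, and the part of the shallower library in these counts was not tested. The smallest p-values belonged to Cdkn1a, the cell cycle inhibitor p21 (2.13, adjusted p = 0.214 in limma-voom), Itm2a, a membrane protein of myogenic cells, at 722 and 534 in control and 1232 and 1644 in Prmt5sKO libraries (1.19, adjusted p = 0.248), and the Notch receptor Notch3, at 915 and 595 in control and 1626 and 4495 in Prmt5sKO libraries (1.87, adjusted p = 0.280). Their log2 fold changes were 2.57, 1.396 and 2.596 without the deeper Prmt5sKO library and 1.66, 0.98 and 1.13 without the shallower one. Pax7, the factor that defines satellite cells, had a log2 fold change of 0.01 (95% confidence interval -0.58 to 0.60).

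Of 18 other surface genes of satellite cells and myoblasts, 3 had an unadjusted p under 0.05, all higher, and 7 lay above and 2 below the control libraries without overlap, with a median log2 fold change of 0.12, beside the shares of all genes given above. The tetraspanins Cd82 and Cd9 were at 903 and 1071 and at 1444 and 921 in control and at 1899 and 2739 and at 2396 and 1811 in Prmt5sKO libraries, log2 fold changes of 1.22 (adjusted p = 0.240 in limma-voom) and 0.85 (adjusted p = 0.331). Ncam1, the neural cell adhesion molecule, was at 11797 and 8827 in control and at 15045 and 17078 in Prmt5sKO libraries (0.65, adjusted p = 0.352). The log2 fold change of Cd82 was 1.48 without the deeper and 0.95 without the shallower Prmt5sKO library. That of Cd9 was 0.53 without the shallower control library.

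The 20 activation and differentiation genes were set beside the markers because the Prmt5sKO libraries differed in them. Their median log2 fold change was 2.71, beside 0.02 over all genes. Of the 20, 13 lay above and 1 below the control libraries without overlap, beside 25.2% and 23.6% of all genes. At an unadjusted p under 0.05, 4 were higher and 0 lower, beside 6.01% and 6.95% of all genes. The list was chosen with earlier results of these data known, so these counts are a description only. Myog, the factor that starts differentiation, was at 1436 and 1189 in control and at 3707 and 19508 in Prmt5sKO libraries, the actin gene Acta1 at 2366 and 1001 in control and 4951 and 60227 in Prmt5sKO libraries, and Neb, which encodes nebulin, at 8607 and 6923 in control and 11127 and 29331 in Prmt5sKO libraries. Of the 8 tested markers, 3 were likewise higher in the shallower than in the deeper Prmt5sKO library, Itga7, Spry1 and Vcam1, by log2 differences of 0.92, 0.49 and 0.12. Cd34 (-0.99), Met (-0.63), Sdc3 (-0.45), Cxcr4 (-0.25) and Sdc4 (-0.02) were lower in the shallower one. Without the shallower Prmt5sKO library the log2 fold changes were 1.501 for Myog, 1.68 for Acta1 and 0.53 for Neb. Without the deeper one they were 3.90, 5.28 and 1.93. The median absolute log2 difference between the Prmt5sKO libraries was 0.43 over all genes. Of 16212 genes tested, 7939 were higher in the shallower Prmt5sKO library.

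**Figure D3:**
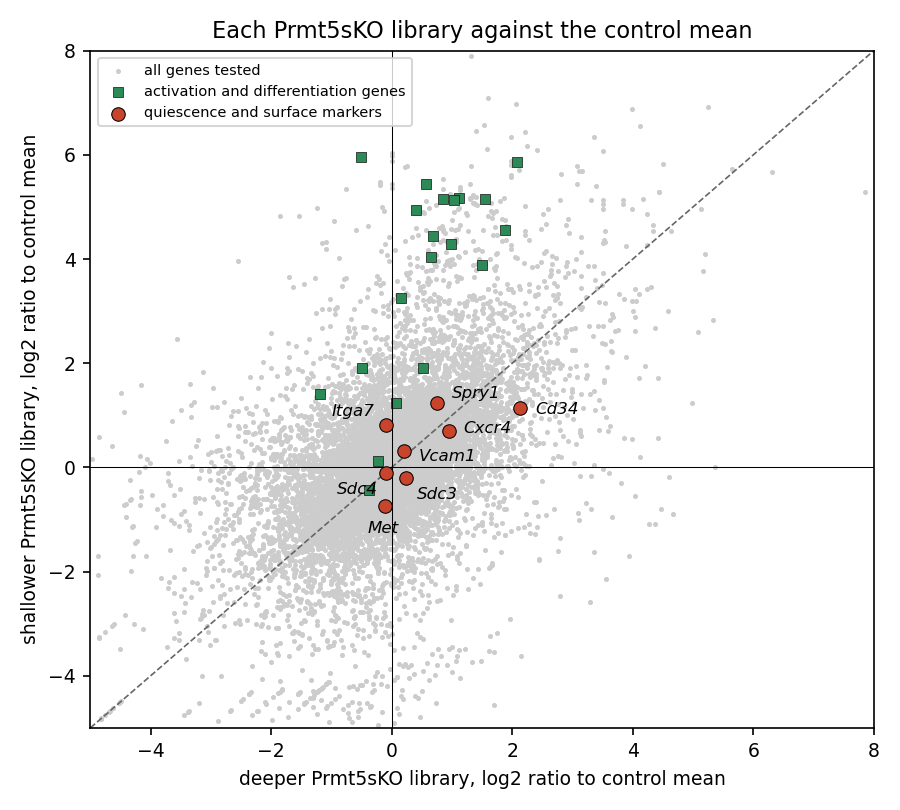
Log2 ratio to the control mean (0.5 added to normalized counts) in the deeper (x axis) and the shallower (y axis) Prmt5sKO library for all genes tested (grey), 20 activation and differentiation genes (green squares) and the 8 tested markers (red circles); the dashed line marks equal ratios and 53 genes lie outside the axes. Most green squares lie far above the line, while Itga7 lies above it by 0.92, Cd34 (-0.99) and Met (-0.63) lie below it, and the other markers lie between -0.45 and 0.49.

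Since Xist and Y-linked reads paired the libraries across groups, the markers were also compared within these pairs. In the pair with high Xist (shallower Prmt5sKO against deeper control), the log2 ratio was 0.86 for Spry1, 0.31 for Cxcr4, 0.30 for Cd34 and 0.23 for Vcam1. In the pair with Y-linked reads (deeper Prmt5sKO against shallower control) it was 1.29, 1.48, 4.42 and 0.31 for the same genes. All 4 ratios were positive in both pairs, as the absence of overlap requires, and those of Cxcr4 and Cd34 were the most unequal. Met was negative in both pairs (-0.48 and -0.34), Itga7 was at 0.70 and 0.04, and Sdc3 (-0.38 and 0.43) and Sdc4 (-0.29 and 0.11) had opposite signs. A limma-voom fit with these pairs as a replicate block called 346 genes, or 2.13% of those tested, and 0 of the 8 markers. The adjusted p in that fit was 0.099 for Spry1, 0.175 for Cxcr4 and 0.264 for Cd34. Among the other genes named, those called in it were Cdkn1a (adjusted p = 0.018), Itm2a (0.042), Notch3 (0.021), Myog (0.028), Acta1 (0.019) and Prmt5 (0.011).

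The estimates for Spry1, Cxcr4 and Cd34 depended on single libraries of both groups. Their log2 fold changes were 0.61, 0.44 and 0.83 without the shallower control library and 1.51, 1.34 and 3.93 without the deeper one. Without the shallower Prmt5sKO library they were 0.80, 1.00 and 2.77, and without the deeper one 1.29, 0.75 and 1.78. Itga7 was at 0.83 and Met at -0.73 without the deeper Prmt5sKO library. In limma-voom with the pairs that share Xist or Y-linked reads as a block, the unadjusted p of Cd34 was 0.054. The adjusted p of the markers ranged from 0.099 to 0.991 over all settings in limma.

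**Figure D4:**
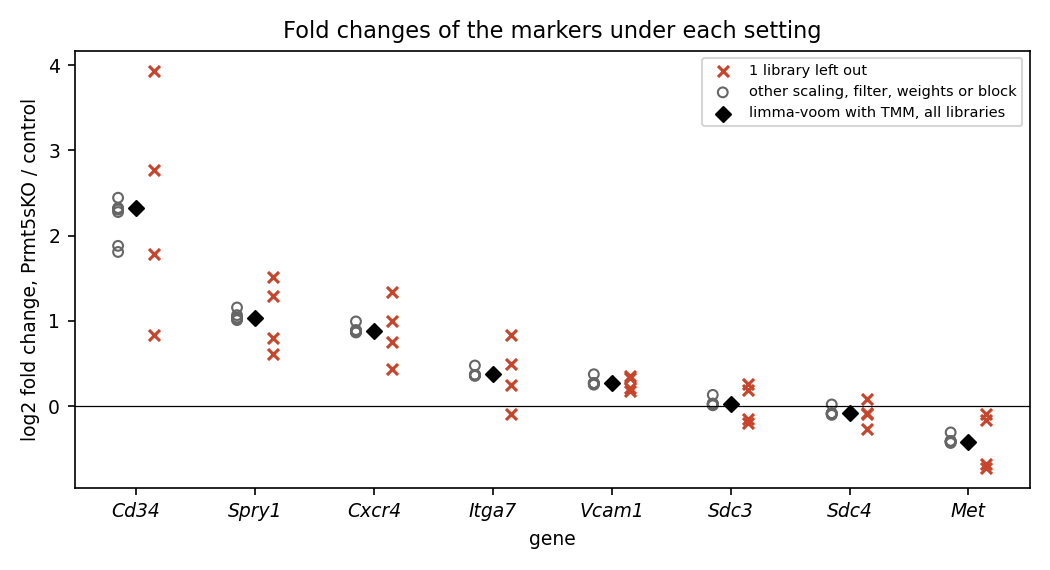
Log2 fold change of Prmt5sKO over control for each tested marker with all libraries (black diamonds), under other scalings, filters, weights or replicate blocks (open circles) and with 1 library left out (red crosses). Cd34 spans 0.83 to 3.93 when libraries are left out, Spry1 0.61 to 1.51 and Cxcr4 0.44 to 1.34, all above 0, while the crosses of Sdc3, Sdc4 and Itga7 fall on both sides of 0.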

How the data were processed

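Total RNA of 2 control and 2 Prmt5sKO samples of cultured MuSC was depleted of ribosomal RNA and sequenced on an Ion Torrent Proton. Per the labels and the study's methods, the authors trimmed reads with Reaper, aligned them with STAR 2.4.0a to GRCm38 (mm10), and compared groups with DESeq2 (version 1.62 in the submitters' processing notes); the strand setting of the counting is not given in the sources used here. The signal values that were deposited are averages of size-factor-normalized counts, 1 for each group and 1 for all libraries. Columns with the authors' log2 fold changes, standard errors, p-values and adjusted p-values were not used.

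In each group mean, a read of 1 library adds a fixed step and a read of the other library another step. Solving for both numbers of reads gave whole reads for 100% of 20065 genes in both groups, and the code was tested on simulated data. Columns carry no replicate numbers. GENCODE M21 gave symbols for 19782 genes. The lowest deposited mean was 0.90, so genes with fewer reads are not in the sums of recovered reads. Reads were scaled by TMM (own code, trims of 30% and 5%), the 16212 genes whose normalized counts averaged 5 or more were kept, and groups were compared with limma-voom (limma 3.58.1, R 4.3.3) in 1 fit of all 4 libraries without covariates, with Benjamini-Hochberg adjustment over these genes. A call needed a change of 2-fold or more and an adjusted p no larger than 0.05, as in the study's methods. All p-values are two-sided. RPKM used exon lengths of GENCODE M21. Ratios within pairs and between libraries had 0.5 added.

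The markers and lists were chosen with earlier results of these data known. Named were all markers, their direct partners, the 3 genes of each list with the smallest p, and the 3 genes nearest in profile to the marker with the largest fold change and to the one with the largest gap between Prmt5sKO libraries, which were both Cd34. Alternatives were other scalings, no filter, limma-trend with a prior count of 2, both pairings of the libraries as a replicate block, and leaving out each library.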

Additional observations from a re-analysis of the deposited data

How the results depend on the processing

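No gene was called with all libraries, and 0 of the 8 tested markers were called under any alternative run. Over all genes the count stayed at 0 under the other scalings, no filter, limma-trend and a replicate block joining the deeper libraries, but was 346 under a replicate block joining each deeper library to the other group's shallower one. It ranged from 0 to 489 with 1 library left out, at 489 without the deeper and 55 without the shallower Prmt5sKO library; the cause was not tested. The columns carry no replicate numbers, and the second pairing is also that of the libraries that share Xist or Y-linked reads. The block of the deeper libraries left Spry1 at an unadjusted p of 0.055. The markers without overlap numbered 4 under every scaling and 5 with no filter, which adds Chrdl2. Reversed in sign were Sdc4 (0.019) and Spry2 (0.096) under library size only, which moved the median of all genes from 0.02 to 0.13, and Col5a1 (-0.0052) under upper-quartile scaling. With 1 library left out, log2 fold changes spanned 0 for Sdc3 (-0.20 to 0.26), Sdc4 (-0.27 to 0.088), Itga7 (-0.097 to 0.83), Ackr3 (-0.30 to 0.34), Itgb7 (-1.62 to 0.63), Col5a1 (-0.53 to 0.55), Fgf2 (-1.01 to 2.25), Fgfr4 (-0.29 to 1.48), Spry2 (-0.29 to 0.26) and Spry4 (-0.25 to 0.30). In these fits the lone library is assumed to vary like the other group. With 2 libraries per group, the intervals of Sdc3 and Sdc4 include changes of up to 0.66 and 0.45 on the log2 scale.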
